A study of Mus musculus with 8 samples.

Results

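The genes described here are 10 genes of the brain vessel wall and of leukocyte attachment to it. They are Cldn5, Ocln, Tjp1 and Pecam1 of the cell-cell junctions, Slc2a1 and Abcb1a of transport across the endothelium, and Selp, Sele, Icam1 and Vcam1 of leukocyte adhesion. They were chosen by name, with earlier results of these data known, and all non-control probes carrying one of these names on the array were taken. This gave 17 probes on 44 spots, of 41174 probes for 22409 gene symbols on the array. 4 genes had 1 probe, 5 had 2 and Vcam1 had 3, and the probe with the brightest mean signal speaks for its gene below.

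The study asked how the mouse brain responds to permanent middle cerebral artery occlusion (PMCAO, a filament left in the vessel) and to the neuropeptide PACAP38 given at that time. Male C57BL/6J mice, 8 to 12 weeks old and without any named mutation, underwent PMCAO or a sham operation and received 1 µl of saline, alone or with 1 pmol PACAP38, into the cerebral ventricle. The right hemisphere, on the side of the occlusion and without olfactory bulb and cerebellum, was taken at 6 h or at 24 h. It held the infarct core, its border and tissue outside the ischemic area, and the PMCAO mice had been selected by neurological grade. RNA from 3 mice was pooled in each of the 8 combinations of operation, injection and time, so a pool is the replicate and the spread between mice within a pool was not measured. Each PACAP38 pool was hybridized with the saline pool of the same operation and time on a two-colour array, and again with the dyes exchanged. This gave 8 arrays with 16 channels, and the 2 arrays of a comparison are repeated measurements of the same RNA.

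Brain endothelial cells are sealed by tight junctions. Claudin-5 (Cldn5) forms the seal, occludin (Ocln) sits beside it in the membrane, and ZO-1 (Tjp1) ties both to the cytoskeleton, while PECAM-1 (Pecam1) joins endothelial cells to each other and is also carried by platelets and leukocytes. GLUT1 (Slc2a1) brings glucose into the brain, and P-glycoprotein (Abcb1a) pumps drugs out. Leukocytes first roll on P-selectin (Selp) and E-selectin (Sele) and then hold on to ICAM-1 (Icam1) and VCAM-1 (Vcam1). These adhesion molecules are known to be induced by cytokines, and NF-kappaB is a known regulator of Icam1, Vcam1 and Sele.

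The upstream sequences of Icam1, Sele and Selp are shown because these genes had the widest range of levels over the 8 pools among the 7 members measured in all 16 channels, that of Sele on signals well above background in only 1 channel. Each line holds the 250 bases before the annotated start from RefSeq (GRCm38.p6), 5′ to 3′ on the strand of the gene, with the letters of motifs found in capitals.
Icam1 (chr9:21015690-21015939, + strand): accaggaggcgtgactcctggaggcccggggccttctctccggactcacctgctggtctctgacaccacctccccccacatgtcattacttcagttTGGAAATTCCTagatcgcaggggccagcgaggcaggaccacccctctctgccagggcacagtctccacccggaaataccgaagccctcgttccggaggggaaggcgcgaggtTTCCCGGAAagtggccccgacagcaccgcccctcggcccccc
Sele (chr1:164047984-164048233, + strand): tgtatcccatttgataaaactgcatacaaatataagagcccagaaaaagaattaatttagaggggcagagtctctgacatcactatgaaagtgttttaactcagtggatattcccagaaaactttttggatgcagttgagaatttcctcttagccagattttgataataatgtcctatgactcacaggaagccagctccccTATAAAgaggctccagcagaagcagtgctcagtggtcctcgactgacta
Selp (chr1:164115014-164115263, + strand): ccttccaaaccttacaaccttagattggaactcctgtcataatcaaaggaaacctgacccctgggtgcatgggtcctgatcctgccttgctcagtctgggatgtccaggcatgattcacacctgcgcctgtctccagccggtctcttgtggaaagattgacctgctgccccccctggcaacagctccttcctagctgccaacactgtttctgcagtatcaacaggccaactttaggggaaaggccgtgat
The letters TTCCNGGAA stood at positions −42 to −34 of Icam1 and in 0.913% of 32841 promoters of the same length. The c-Rel-type kappaB motif stood in the same gene at −154 to −145, overlapping a second match at −153 to −144 on the other strand, and was present in 6.95% of promoters. Among the other members it stood in Tjp1 at −58 to −49. The letters TATAAA were found in Sele at −49 to −44 and in 12.4% of promoters. The RelA-type kappaB motif, present in 7.25% of promoters, was found in no member, and none of the 4 motifs in Selp. Both strands were searched, 8 of the 10 members had a promoter in the table, and Vcam1 and Pecam1 did not. Such matches describe letters in this window only.

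A level is the log2 processed signal minus the 75th percentile of its channel, averaged over the 2 arrays of a pool, so that 0 is the brightness of that percentile. Levels are compared between pools for 1 probe, never between probes. The brightest probe was well above background in all 16 channels for 8 of the 10 genes. The exceptions were Sele, which passed on 1 array of the saline PMCAO pool at 24 h only, and Selp, which did not pass in either sham pool at 24 h. All 17 fixed endothelial marker genes were well above background on both arrays in each of the 8 pools, which does not measure how much vessel a pool held. Their summed linear signal relative to the 75th percentile ran from 26.6 in the PACAP38 sham pool at 6 h to 42.5 in the saline PMCAO pool at 24 h. The hemisphere was measured in bulk, so fewer cells of a type and less RNA per cell cannot be told apart. The 6 h arrays were on one slide and the 24 h arrays on another, processed with another version of the scan software. Time and slide thus cannot be told apart, while sham and PMCAO of 1 time shared a slide. 1 array, the second of the sham 6 h comparison, stood apart from the others. It had 10.7% outlier spots, against 0.323 to 3.09% on the other 7, and its channels correlated at 0.821 to 0.867 with same-dye channels of other groups, against 0.945 to 0.988 among the other arrays. The main 6 h differences of the members are given with and without it where both exist. The spots of Cldn5 and of the brightest Vcam1 probe were dropped as outliers on that array, and the spot of Slc2a1 on the first sham 6 h array, so these 3 genes are outside the main limma tests and 7 of the 10 members were tested.

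Of the leukocyte adhesion genes at 24 h, Icam1 was above sham after PMCAO on both of its probes with both injections, Selp was above the limit set by dim sham signals, Sele was mostly dim, and the probes of Vcam1 disagreed. The level of Icam1 was −1.38 in the saline and −1.29 in the PACAP38 sham pool, and 0.97 and −0.09 in the PMCAO pools. Both PMCAO pools lay above both sham pools. With so few pools, such a separation, here and below, is a description only, and its share over all probes was not counted. In saline mice PMCAO exceeded sham by 2.41 and 2.29 on the log2 scale in the Cy3 and Cy5 channels, 5.09-fold in the mean, and in PACAP38 mice by 1.13 and 1.27, 2.29-fold. The second Icam1 probe gave 5.52-fold and 2.40-fold. In limma, fitted to all 8 pools with a contrast at 24 h, the difference of the brightest probe was 1.77 ± 0.35 (SE) with an adjusted p of 0.0573, above the threshold of 0.05, and the second probe gave 1.86 with an adjusted p of 0.0476.

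The Selp signal was not well above background in the sham pools at 24 h, where its level read −6.96 with saline and −6.60 with PACAP38. It was −3.23 and −4.48 in the PMCAO pools and well above background there on both arrays. Against the lower limit set by the dim sham signals, Selp was at least 2.05-fold higher after PMCAO in saline mice and at least 1.21-fold higher in PACAP38 mice. The limma estimate at 24 h was 2.92 ± 0.38 (SE) with an adjusted p of 0.0231. This estimate uses the dim sham values as read, and with normexp background correction, loess and Aquantile scaling the saline difference was 1.03 in place of 3.72. The PACAP38 difference was then 0.31 in place of 2.11, inside the fold threshold. The second Selp probe was well above background only on 1 array of the saline PMCAO pool at 24 h, at least 1.16-fold above sham.

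The level of Sele read −8.50 with saline and −8.27 with PACAP38 in the sham pools at 24 h, and −6.42 and −6.86 in the PMCAO pools. Its saline difference stood at a limit of at least 1.08-fold, measured on 1 of the 2 PMCAO arrays, and neither PACAP38 pool was well above background. limma gave 1.75 ± 0.21 (SE) with an adjusted p of 0.0191 on these dim values, and under normexp, loess and Aquantile scaling the saline difference was 0.29 in place of 2.09.

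The 3 Vcam1 probes did not move alike. The brightest one read 1.06 and 1.00 in the sham pools at 24 h and 0.76 and 0.72 in the PMCAO pools, saline first, so both PMCAO pools lay slightly below both sham pools. The ratio of PMCAO to sham was 0.812 in saline and 0.823 in PACAP38 mice, inside the fold thresholds. The second probe, also well above background in all channels, went the other way, from −3.98 and −3.81 in the sham pools to −3.18 and −3.04 after PMCAO. This was 1.75-fold with saline and 1.72-fold with PACAP38, and limma gave 0.79 ± 0.14 (SE) with an adjusted p of 0.0456. The third Vcam1 probe was not well above background in any channel. The files do not say which transcript each probe reads, so no single direction can be given for Vcam1.

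**Figure D1:**
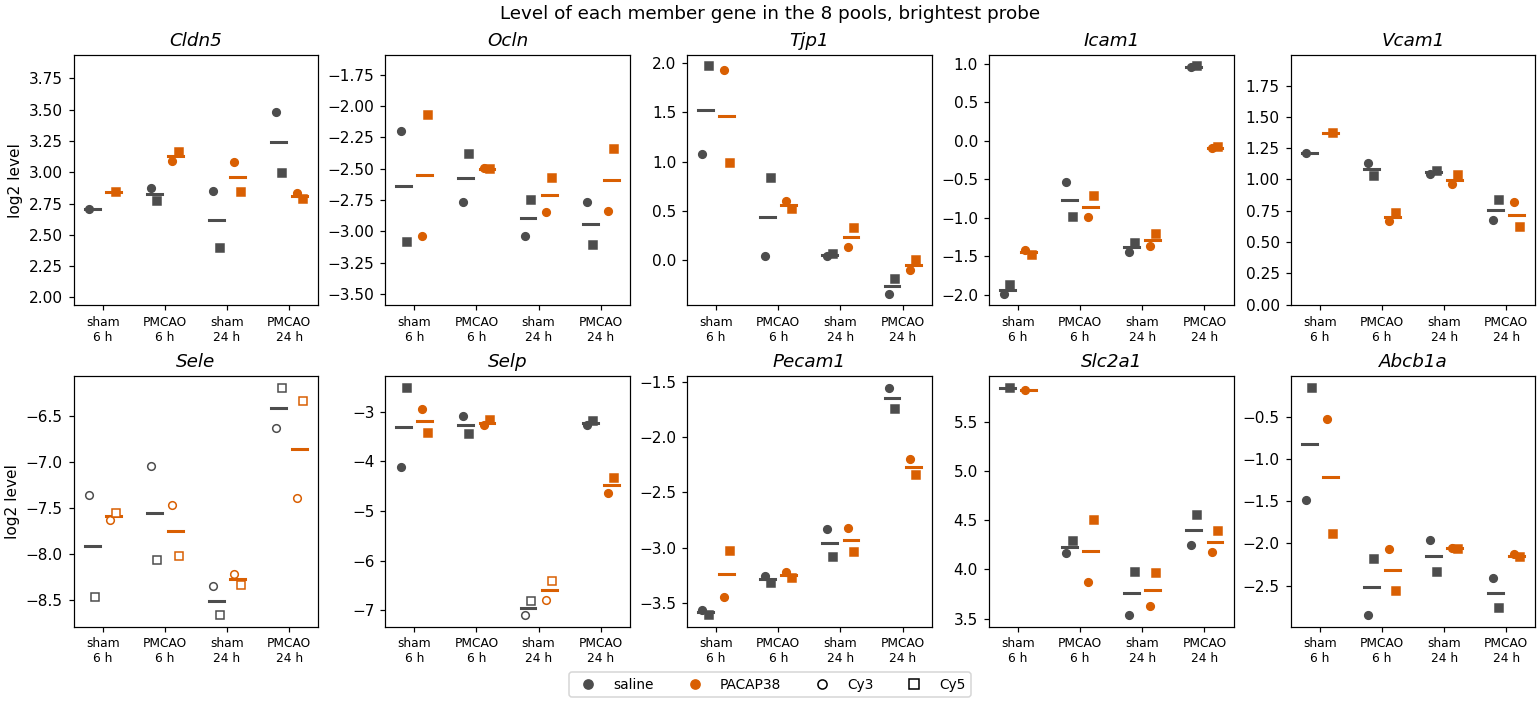
Level of each of the 10 genes (log2 processed signal relative to the 75th percentile of the channel) in the 8 pools, from the brightest probe. Points are single channels, circles for Cy3 and squares for Cy5, bars are the mean of a pool over its 2 arrays, and open symbols mark pools not well above background on both arrays. At 24 h the saline PMCAO pool stands highest for Icam1 (0.97) and Pecam1 (−1.65), and Selp is not well above background in the sham pools.

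Among the junction genes Pecam1 was higher after PMCAO at 24 h with both injections, Cldn5 with saline only, and Ocln and Tjp1 stayed within the fold thresholds. Pecam1 read −2.96 and −2.93 in the sham pools and −1.65 and −2.27 in the PMCAO pools, saline first, without overlap between the operations. PMCAO exceeded sham 2.47-fold with saline and 1.58-fold with PACAP38, on both arrays in each case. The PACAP38 difference of 0.66 on the log2 scale was 0.27 with normexp, loess and Aquantile scaling and 0.24 with both probes averaged, inside the fold threshold. limma gave 0.98 ± 0.23 (SE) with an adjusted p of 0.0834, so the difference did not pass. The second Pecam1 probe was dim in all channels.

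Cldn5 read 2.62 and 2.96 in the sham pools at 24 h and 3.24 and 2.81 in the PMCAO pools, saline first, and the operations overlapped. The saline pair was 1.54-fold higher after PMCAO, by 0.63 and 0.61 in the 2 dyes, while the PACAP38 pair gave 0.901. With outlier spots kept so that the gene could be tested, limma gave 0.24 with an adjusted p of 0.604. Ocln read −2.89 and −2.71 after sham and −2.94 and −2.59 after PMCAO, 0.968-fold with saline and 1.08-fold with PACAP38, and its range over all 8 pools was 0.44, the narrowest of the 7 members measured in all channels. Tjp1 read 0.05 and 0.23 after sham and −0.27 and −0.05 after PMCAO, so that both PMCAO pools lay below both sham pools. The limma difference of Tjp1 was −0.30 with an adjusted p of 0.252.

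Of the transport genes, Slc2a1 was higher and Abcb1a lower after PMCAO at 24 h, each in saline mice past the fold threshold. Slc2a1 read 3.76 and 3.79 in the sham pools and 4.40 and 4.28 in the PMCAO pools, saline first, without overlap. The difference was 1.56-fold with saline and 1.40-fold with PACAP38, and limma with outlier spots kept gave 0.57 with an adjusted p of 0.118. Abcb1a read −2.15 and −2.06 after sham and −2.59 and −2.15 after PMCAO. PMCAO stood at 0.738 of sham with saline and at 0.940 with PACAP38, and limma gave −0.26 with an adjusted p of 0.564. Abcb1a has a close paralogue, Abcb1b, and how far its probe also binds that transcript was not tested.

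In counts, 6 members were above 1.5-fold in the saline comparison of PMCAO with sham at 24 h, against 9.10% of 41157 probes. Of them 4 were so in both dyes and well above background in the PMCAO pool, the brighter side, against 4.43%. Selp was counted among these 4 although dim in the sham pool. The 6 were Selp, Icam1, Pecam1, Sele, Slc2a1 and Cldn5. Only Abcb1a was below 0.75-fold, against 14.4% of probes. With median scaling the count above 1.5-fold was 4, Cldn5 being at 0.56 and Slc2a1 at 0.58 on the log2 scale. In the PACAP38 comparison 4 members were above 1.5-fold (background 6.27%), and 0 were below 0.75-fold (8.46%). Of the 4, 3 were so in both dyes and well above background in the PMCAO pool (2.12%), again with Selp among them. With normexp, loess and Aquantile scaling 5 members were above 1.5-fold with saline and 1 with PACAP38. With PACAP38, Selp was then at 0.31, Pecam1 at 0.27 and Sele at 0.14 on the log2 scale, inside the threshold. The median difference of the 10 members was 0.63 with saline and 0.30 with PACAP38, where the medians of all probes were −0.01 and 0.02. By limma at 24 h, Selp and Sele passed upward of the 7 members tested, where 2.44% of 36121 probes passed upward and 1.20% downward. With the arrays of replicate 1 only, none of the members passed, the adjusted p being 0.0750 for Selp, 0.0946 for Sele and 0.154 for Icam1. With normexp, loess and Aquantile scaling Selp (adjusted p = 0.0554) and Sele (0.0509) did not pass in limma, while Icam1 (0.0302) and Tjp1 (0.0468, lower) did. Over the alternatives Selp lost its call in 6 of 16 and Sele in 8 of 15. Of all probes that passed at 24 h 67.1% were higher, against 57.8% with median scaling and 40.7% with normexp, loess and Aquantile scaling. The 2 pools of 1 operation and time were hybridized to the same arrays, and the groups had 2 pools each, so these p-values may be too small.

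**Figure D2:**
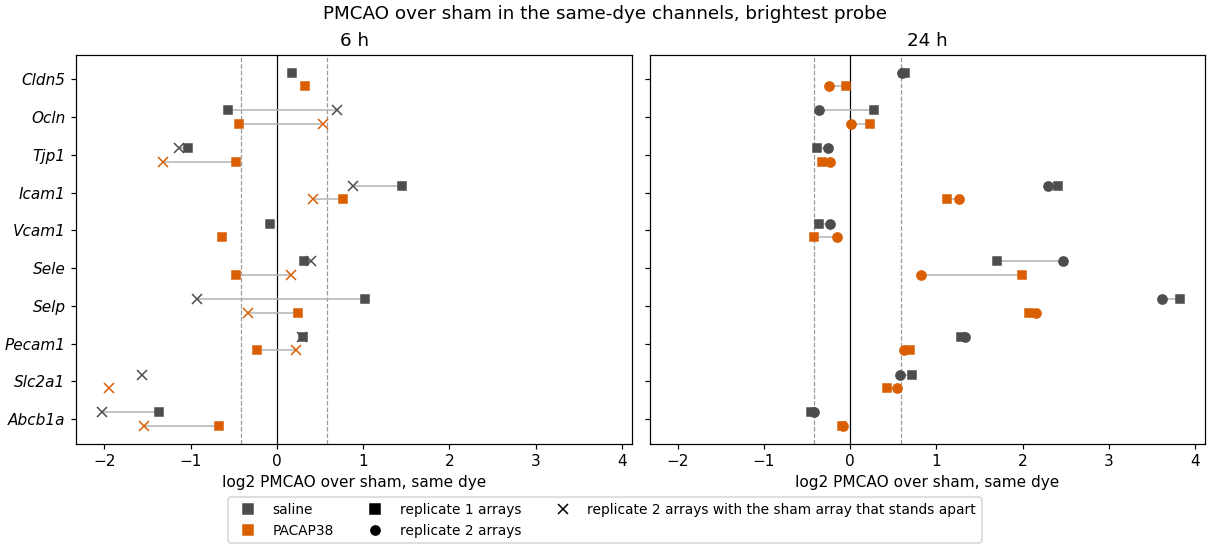
Log2 difference of PMCAO from sham for the 10 genes at 6 h and 24 h, in saline and in PACAP38 mice, measured between channels of the same dye, with 1 mark for each pair of channels and dashed lines at the fold thresholds. Crosses at 6 h are pairs that use the sham array standing apart. At 24 h the saline pairs of Icam1 (2.41 and 2.29) lie above its PACAP38 pairs (1.13 and 1.27).

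At 6 h Icam1 was higher after PMCAO, while the saline differences of Selp had opposite signs and Sele was too dim to compare. The values of several members depended on the array that stood apart. Icam1 read −1.93 and −1.45 in the sham pools and −0.76 and −0.86 in the PMCAO pools, saline first, without overlap. The saline difference was 1.45 without the array that stood apart and 0.88 in the pair that used it, 2.24-fold in the mean. The PACAP38 differences were 0.76 and 0.42, 1.51-fold. limma gave 0.88 ± 0.35 (SE) with an adjusted p of 0.0831, and 1.11 with an adjusted p of 0.202 without replicate 2.

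Selp at 6 h read −3.32 and −3.18 in the sham pools and −3.27 and −3.22 in the PMCAO pools, well above background in all of them. The saline differences were 1.02 without the array that stood apart and −0.93 with it, so the 2 measurements had opposite signs. The second Selp probe was not well above background in any channel at 6 h. Sele was not well above background in any pool at 6 h. Pecam1 read −3.58 and −3.24 after sham and −3.28 and −3.25 after PMCAO, with saline differences of 0.31 without the array that stood apart and 0.29 with it. The brightest Vcam1 probe read 1.21 and 1.37 after sham, on the first array alone, and 1.08 and 0.70 after PMCAO.

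Tjp1 and Abcb1a were lower after PMCAO at 6 h. Tjp1 read 1.52 and 1.46 in the sham pools and 0.44 and 0.56 in the PMCAO pools, and limma gave −0.99 ± 0.13 (SE) with an adjusted p of 0.00242. Its second probe, dim in many 6 h channels, gave 0.62 in the other direction, with an adjusted p of 0.0169 by limma, and 0.17 with an adjusted p of 0.640 without replicate 2. Abcb1a read −0.82 and −1.21 after sham and −2.52 and −2.31 after PMCAO, and limma gave −1.40 ± 0.21 (SE) with an adjusted p of 0.00375. Without replicate 2, and so without the array that stood apart, Tjp1 was at −0.75 with an adjusted p of 0.129 and Abcb1a at −1.02 with an adjusted p of 0.104 by limma. Both kept their direction and neither passed. Slc2a1 read 5.85 and 5.82 after sham, on the array that stood apart alone, and 4.23 and 4.19 after PMCAO, so its 6 h difference has no value without that array. Cldn5 read 2.71 and 2.84 after sham, on the first array alone, and 2.82 and 3.13 after PMCAO, and Ocln had saline differences of −0.57 without the array that stood apart and 0.70 with it.

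Over all probes 52.7% were past a fold threshold in the saline comparison at 6 h and 47.9% in the PACAP38 comparison, where 4 and 5 of the 10 members were. By limma 15.2% of probes fell at 6 h, and Tjp1 and Abcb1a were the members that fell. Of all probes that passed at 6 h 68.5% were higher, but 48.3% with channels scaled to their median, the median of all probes being 0.29 and 0.02 under these scalings. Without replicate 2, 1.16% of 40202 probes passed at 6 h and 0 members. The difference between the PMCAO effects at 24 h and 6 h passed upward for 8.74% of probes by limma, and for 4 of the 7 members tested, Selp, Sele, Tjp1 and Abcb1a. Of all probes passing this test 29.7% were higher, and 47.2% with median scaling. Without replicate 2 it passed for 0.321% of probes and for 0 members. Over all 8 pools 0% of 36121 probes passed in limma, with 3097 higher and 1412 lower at an unadjusted p under 0.05. Among the members Icam1 was at 1.33 with an adjusted p of 0.389, Selp at 1.46 with 0.420, Abcb1a at −0.83 with 0.400 and Tjp1 at −0.65 with 0.391.

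Icam1, Selp and Pecam1 were lower with PACAP38 than with saline in PMCAO mice at 24 h, on both arrays of that comparison. In the other comparisons of PACAP38 with saline no member was past a fold threshold in the mean of its brightest probe. Within a comparison there was 1 pool a side, so these are values of those pools with no test.

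The log2 ratio of PACAP38 to saline for Icam1 in these mice was −1.05 on the first array, which had PACAP38 in Cy5, and −1.07 on the second, with the dyes exchanged. The mean was 0.478-fold, and the SD over the 10 spots of the probe was 0.016 on the first array and 0.020 on the second. The second Icam1 probe read −1.18 and −0.78, 0.507-fold. In sham mice the Icam1 ratios were 0.50 and 0.47 at 6 h, the latter on the array that stood apart, and 0.22 and −0.05 at 24 h. In PMCAO mice at 6 h they were −0.19 and 0.02. The ratio of the brightest Icam1 probe thus lay below 0.75-fold only in PMCAO mice at 24 h, while the second probe, dim on 1 array, stood at 0.658 at 6 h.

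Selp had ratios of −1.08 and −1.44 in PMCAO mice at 24 h, 0.418-fold, with spot SDs of 0.12 and 0.20. Its second probe was dim in the PACAP38 pool, which was at least 1.14-fold lower. With normexp and loess the Selp ratio was −0.68 in place of −1.26. The ratios were −0.09 and 0.19 in PMCAO at 6 h and 0.68 and −0.42 in sham at 6 h, and Selp could not be compared in sham at 24 h, where neither pool was well above background.

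Pecam1 had ratios of −0.80 and −0.46 in PMCAO mice at 24 h, 0.647-fold, with spot SDs of 0.045 and 0.034. In sham mice at 24 h its ratios were −0.22 and 0.25, and in PMCAO mice at 6 h −0.03 and 0.11. Cldn5 was below 0.75-fold in the mean of PMCAO at 24 h, at 0.739, but its 2 arrays read −0.71 and −0.17. Sele, at 0.729, read 0.29 and −1.20 and was not well above background in the PACAP38 pool.

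The other 5 genes stayed within the thresholds in PMCAO mice at 24 h. Vcam1 read −0.07 and −0.02 with its brightest probe and 0.05 and 0.21 with the second. Slc2a1 read 0.13 and −0.38, and Tjp1 0.33 and 0.08. Ocln read 0.41 and 0.27, 1.26-fold, and Abcb1a 0.24 and 0.62, 1.35-fold, the highest ratios among the members.

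**Figure D3:**
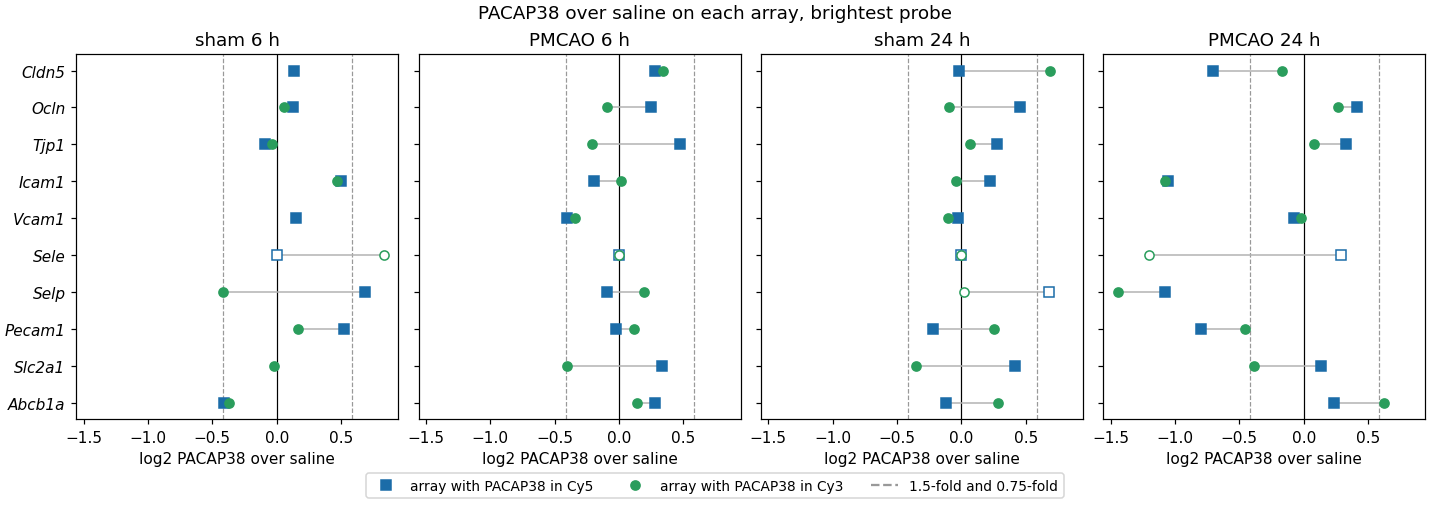
Log2 ratio of PACAP38 to saline for the 10 genes in the 4 comparisons, with 1 point for each of the 2 dye-swapped arrays and dashed lines at the fold thresholds. Open symbols mark genes for which neither pool was well above background on both arrays. In PMCAO mice at 24 h both points lie below 0.75-fold for Icam1 (−1.05 and −1.07), Selp (−1.08 and −1.44) and Pecam1 (−0.80 and −0.46).

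In counts, 5 members were below 0.75-fold in the mean of PMCAO at 24 h, against 8.18% of 41167 probes, and 3 were so on both arrays and well above background, against 3.09%. With 0 members above 1.5-fold, 5 of 10 were past a threshold, against 11.2% of probes. The median ratio of the 10 members was −0.28 and that of all probes 0. For sham mice 0 members were past a threshold in the mean at either time, where 11.5% of probes were at 6 h and 5.62% at 24 h. For PMCAO mice at 6 h the values were 0 members and 12.3% of probes. A limma test over the 4 PACAP38 and saline pairs found 0% of 36121 probes changed, with 1029 higher and 753 lower at an unadjusted p under 0.05. In it Icam1 was at −0.15 and Selp at −0.18, and the only member with an unadjusted p under 0.05 was Ocln, at 0.17 with an adjusted p of 0.871.

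The saline PMCAO pool at 24 h enters both kinds of comparison, as the higher side over sham and as the divisor of PACAP38, so the values above share it. Side by side, Icam1 in that pool was 5.09-fold over saline sham, and the PACAP38 pool was 2.29-fold over PACAP38 sham and 0.478-fold of saline. For Pecam1 these values were 2.47, 1.58 and 0.647. Both genes in the PACAP38 pool thus lay between the sham pools and the saline PMCAO pool.

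Other genes of the same pathways, from fixed lists, were lower with PACAP38 in PMCAO mice at 24 h, most often in the lists of leukocyte adhesion and endothelial activation. Of 23 further leukocyte adhesion genes 8 were below 0.75-fold on both arrays and 1 above 1.5-fold, with a median of −0.35. Among the lower genes was Itgax, an integrin of myeloid cells, at 0.463-fold, and the 1 higher was Itga4, the integrin partner of VCAM-1, at 1.55-fold. Of 22 endothelial activation genes 11 were lower and 0 higher, with a median of −0.65. The lowest were the cytokine Csf3 at 0.128-fold and the protein C receptor Procr at 0.273-fold. Against these counts, 3.09% of all probes were lower and 0.418% higher by the same rule. All probes include dim ones, which this rule leaves out, and the lists were chosen with earlier results of these data known.

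The barrier lists held fewer such genes. Of 15 further junction genes 3 were lower and 0 higher, with a median of −0.14. VE-cadherin, Cdh5, of the endothelial adherens junction, was at 0.387-fold and the junction molecule F11r at 0.643-fold. Of 16 further transport genes 1 was lower, the caveolin Cav1 at 0.702-fold, and 1 higher, the organic anion carrier Slco1a4 at 1.86-fold, with a median of −0.07. In PMCAO mice at 6 h 0 of 13 junction and 0 of 15 transport genes were past a threshold on both arrays, and 1 of 22 adhesion genes was lower, Selplg at 0.606-fold, against 0.661% of probes higher and 0.790% lower.

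Markers of other cells moved in the same comparison. Of 13 neutrophil genes 9 were lower with PACAP38 in PMCAO mice at 24 h and 0 higher, with a median of −1.80. The collagenase Mmp8 was at 0.096-fold and Retnlg at 0.112-fold. Their summed level, as linear signal relative to the 75th percentile, was 49.4 in the saline and 6.14 in the PACAP38 pool, against 0.934 and 1.30 in the sham pools of that time. Elane and Camp were not well above background in any channel, and 11 of the 13 genes were well above it on both arrays in the saline and 7 in the PACAP38 pool. Of 9 platelet genes 2 were lower, Ppbp at 0.119-fold and Pf4 at 0.317-fold, and the summed level was 2.65 and 1.12, against 1.29 in both sham pools, while Gp1ba and Gp6 were not above background in any channel. Pecam1 and Selp are also made by platelets or their precursors. The part of blood cells in the Icam1, Selp and Pecam1 values was not tested.

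Of the 17 endothelial marker genes 4 were lower and 1 higher, with a median of −0.25 and a summed level of 42.5 in the saline and 34.2 in the PACAP38 pool, against 40.3 and 41.5 in sham. Cdh5 was at 0.387-fold and Emcn at 0.471-fold, and Slco1a4 was the gene that was higher. The 11 pericyte and mural genes had 1 lower, Kcnj8 at 0.701-fold, and a summed level of 25.0 and 22.3. Of 8 olfactory bulb genes 7 were lower, led by S100a5 at 0.047-fold and Tbx21 at 0.151-fold, with a summed level of 8.51 and 4.03, against 4.62 and 4.92 in sham. The part of tissue content in the member values was not tested.

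**Figure D4:**
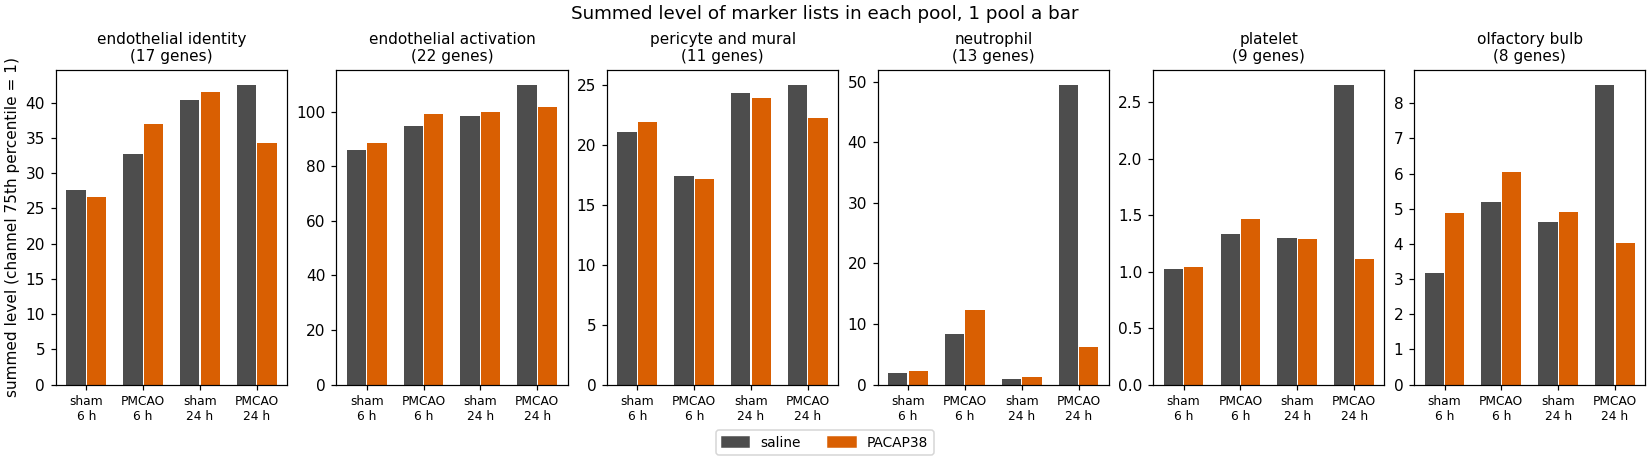
Summed level of 6 fixed gene lists (linear signal, with the 75th percentile of the channel as 1, brightest probe of each gene) in the 8 pools, 1 bar for each pool. In PMCAO at 24 h the neutrophil genes sum to 49.4 with saline and 6.14 with PACAP38, and the endothelial marker genes to 42.5 and 34.2.

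The remaining lists held few changes at 24 h. Of 12 microglia and macrophage genes 2 were lower, Ccr2 at 0.609-fold and Itgam at 0.628-fold. 1 of 8 choroid plexus genes, Aqp1 at 0.615-fold, and 1 of 7 oligodendrocyte genes, Mobp at 0.577-fold, were lower, and 0 of 8 cerebellar granule cell, 0 of 9 neuron and 0 of 7 astrocyte genes were past both thresholds. In PMCAO mice at 6 h 3 neutrophil genes were higher and 0 lower, among them Mmp8 at 1.90-fold and Retnlg at 1.72-fold, with a summed level of 8.28 with saline and 12.4 with PACAP38.

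For PMCAO against sham at 24 h, limma called 1 of 10 tested junction genes, 0 of 12 transport genes, 2 of 20 adhesion genes and 2 of 19 activation genes, all higher, where 2.44% of all probes passed upward and 1.20% downward. These 5 genes are named after their values were seen. Icam4, an adhesion gene, was 1.87-fold higher with an adjusted p of 0.0425, and Lcn2, of the activation list, 19.4-fold higher with an adjusted p of 0.0148. The claudin Cldn1 (adjusted p = 0.0270), Glycam1 (0.00425) and Csf3 (0.0428) were not well above background in the saline sham pool, so no fold is given for them. The same test called 0 of 15 endothelial marker, 0 of 9 pericyte and 0 of 13 neutrophil genes, while the median estimate of the neutrophil genes was 1.14, and that of all probes 0.02. Of 9 platelet genes 1 passed upward, Gp1ba, not well above background in any channel, and 1 downward, Gp9, at 0.548-fold with an adjusted p of 0.0322. Of 9 microglia and macrophage genes Cd68 passed, 2.11-fold higher with an adjusted p of 0.0208. Of 4 astrocyte genes Aldh1l1 passed with an adjusted p of 0.000462, but its saline difference was 10.97 in one dye and 0.12 in the other. None of the 6 choroid plexus, 7 cerebellar granule cell, 8 olfactory bulb, 6 neuron and 5 oligodendrocyte genes tested passed in limma. These 4 genes too are named after their values were seen.

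Genes whose levels followed those of the 3 members with the widest range were ranked among 17778 genes outside the lists by Pearson's r over the 8 pools. For Icam1 they were Slc39a14 (r = 0.993), Zbtb7b (0.991) and Capg (0.989). For Selp they were Eif1a (0.987), Stat4 (0.984) and Mcemp1 (0.980), and for Sele Slc1a5 (0.985), Lrg1 (0.975) and Adam15 (0.971). The pools share arrays in pairs and slides by time, and the Sele levels are mostly dim, so these values are descriptions of likeness over 8 pools.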

How the data were processed

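The authors hybridized pooled RNA to 4x44K mouse arrays and processed scans with Agilent Feature Extraction (9.5.1.1 at 6 h, 9.5.3.1 at 24 h, per the file headers). Used here were the deposited background-subtracted, dye-normalized signal intensities of both channels, their log10 ratio and flags, and, as an alternative, the table of processed ratios, in which the authors put a minus before the values of the dye-swapped arrays (read as a score and turned). Non-outlier spots of a probe were averaged. A probe counts as well above background when no fewer of its spots are flagged so than not. A log ratio was turned to PACAP38 over saline on both dye orientations. PMCAO and sham were compared between same-dye channels, after scaling to the 75th percentile.

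The fold thresholds, 1.5 and 0.75, apply to the mean of 2 arrays, as in the methods of the study. Tests used limma 3.58.1 in R 4.3.3 with Benjamini-Hochberg adjustment over 36121 probes. The 2 arrays of a pool were averaged. Over all pools the fit had operation, time and injection, with the array pair as a random block (correlation 0.617). The contrasts at each time came from a fit of the 4 groups and injection to all 8 pools. The scripts were tested on simulated data in which pools varied independently, so the effect of shared arrays on the p-values was not tested. The labels number the arrays of a comparison as separate pools, whereas the methods describe 1 RNA labelled in both dyes, and they were counted as 1 sample. P-values of the contrasts at each time, and between the times, rest on how the difference between PACAP38 and saline pools varied over the 4 groups. Spread between separate array pairs of the same operation and time was not measured and does not enter them. The number of pools, 8, limits precision. Dim values gave limits, "at least N-fold", from the lowest well-measured signal after normexp (offset 50), loess and Aquantile scaling. Members and lists were chosen with earlier results of these data known. Genes of the lists were named by a fixed rule: the 2 highest and 2 lowest of each list for PACAP38 in PMCAO mice past the threshold on both arrays. Some genes that this rule names are not reported here. No sample was left out.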

Additional observations from a re-analysis of the deposited data

Results flagged for a closer look

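The effect of PMCAO differed between 24 h and 6 h in limma for the brightest probe of 4 members. The difference of the log2 effects (24 h minus 6 h) was 2.91 for Selp (adjusted p = 0.0151), 1.65 for Sele (adjusted p = 0.0143), 1.14 for Abcb1a (adjusted p = 0.0359) and 0.69 for Tjp1 (adjusted p = 0.0352). Sele was not well above background in any 6 h pool, and neither Sele nor Selp was in the sham pools at 24 h, so their estimates use dim signals and are no measured folds. Abcb1a and Tjp1 were lower after PMCAO at 6 h, and neither passed at 24 h (adjusted p = 0.564 and 0.252 by limma). The second Tjp1 probe, dim in many 6 h channels, went the other way, at −0.84 with an adjusted p of 0.0312. Without replicate 2, which holds the sham 6 h array that stood apart, the limma estimates were 2.31, 1.93, 0.74 and 0.39, with adjusted p of 0.271, 0.207, 0.432 and 0.630. Between 6 h and 24 h the saline level of Selp went from −3.27 to −3.23 after PMCAO and from −3.32 to −6.96 after sham. For Abcb1a it went from −2.52 to −2.59 and from −0.82 to −2.15. For Tjp1 it went from 0.44 to −0.27 and from 1.52 to 0.05. In the pool means sham thus moved more than PMCAO for these genes, also with PACAP38. On the replicate 1 arrays alone, without the array that stood apart, this did not hold for Abcb1a with PACAP38. There it went from −1.89 to −2.06 after sham and from −2.56 to −2.16 after PMCAO. Sele went from −7.55 to −6.42 after PMCAO and from −7.91 to −8.50 after sham. The 2 times lay on different slides, and time and slide cannot be told apart.

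As read, the PACAP38 ratio of Selp was positive on both arrays of sham mice at 24 h (0.68 and 0.02) and negative on both arrays of PMCAO mice (−1.08 and −1.44), a difference of 1.61 on the log2 scale. Selp was not well above background in either sham pool, so the sham ratio compares dim signals and no difference was measured or tested.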

How the results depend on the processing

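With pools in pairs on shared arrays, limma had few degrees of freedom, and Sele, and Selp in sham at 24 h, were limited by signal over background. Of 519 limma values of members under alternatives, 463 stayed on their side of the threshold, 37 lost and 19 gained significance, and 49, none past the threshold, changed sign. Of 499 untested values, 382 moved by less than the difference between arrays, 116 by more, and 47 in all changed sign. Of these 47, 1 was past a fold threshold in the main setting. This was Sele, PACAP38 in PMCAO at 24 h, at −0.46, with 0.29 without replicate 2 and −1.20 without replicate 1. Others were past a threshold only under the alternative. Among them were saline PMCAO over sham at 6 h for Selp (−0.93 without replicate 1) and Ocln (−0.57 without replicate 2). Replicate numbers mark dye orientation and are no pairing of mice. Deviations between replicates correlated at 0.895 for sham and PMCAO at 24 h. They correlated at 0.419 for sham 24 h and 0.503 for PMCAO 24 h with PMCAO 6 h. With sham 6 h, which holds the array that stood apart, they correlated at −0.105 to 0.126. The cause of the changes below was not tested.

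Probes passing limma over all pools, 0 both ways, were 759 higher and 181 lower without the block for array pairs and 1985 and 1066 with the replicate block, and with 1 replicate or pool left out 0 to 48 and 0 to 1. At 6 h, 11988 and 5500 became 7849 and 8398 with median scaling and 8860 lower with normexp, loess and Aquantile, and 430 to 14939 and 35 to 7883 with 1 left out. At 24 h, 882 and 433 became 1802 and 2624 with normexp, loess and Aquantile, 1112 lower with bright probes only, 2094 and 1658 with the replicate block, and 68 to 750 and 18 to 351 with 1 left out. For 24 h against 6 h, 3157 higher became 4793 with quantile normalization and 6373 with normexp, loess and Aquantile, and with 1 left out 34 to 5606 higher and 95 to 10401 lower against 7468.

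Members past a fold threshold for PACAP38 were 2 in PMCAO at 6 h with all probes averaged (0 before), 3 in PMCAO at 24 h at 1.5-fold either way (5 before), and with 1 array left out 1 to 2 in sham at 6 h and 1 in sham at 24 h (0 before). For PMCAO over sham with PACAP38 they were 3 at 6 h with quantile normalization or all probes averaged and 3 to 6 with 1 array left out (5 before), and 1 at 24 h with normexp, loess and Aquantile (4 before).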
